A study of Mus musculus with 16 samples.

Results

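The sarcomeric thin filament was followed here through 10 of the 24421 genes counted in mouse muscle: the actins *Acta1*, *Actc1* and *Acta2*, the tropomyosins *Tpm1*, *Tpm2*, *Tpm3* and *Tpm4*, and the end-binding proteins *Lmod2*, *Lmod3* and *Tmod4*, each matched by its gene symbol. Poly(A) RNA came from the gastrocnemius (Gas), in which fast-twitch fibers dominate, and the soleus (Sol), which is rich in slow-twitch fibers. The mice were 8-week-old males, in 3 WT and 5 LSD1-mKO libraries for each muscle, 16 libraries in all. LSD1-mKO mice were *Lsd1* flox/flox and carried Tg ACTA1-CreERT2/+, and WT mice were *Lsd1*-floxed mice that lacked CreERT2. The Cre recombinase was driven by the promoter of human *ACTA1*, the counterpart of *Acta1*, so vascular and blood cells in the tissue can keep LSD1. Both genotypes were given tamoxifen (75 mg/kg for 5 days) and dexamethasone, a synthetic glucocorticoid (1 mg/kg for 7 days), so no muscle without either drug entered a comparison.

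The thin filament is a double strand of actin along which tropomyosin lies, and tropomyosin with the troponin complex sets whether myosin can bind. *Acta1* encodes the actin of adult skeletal muscle, *Actc1* the cardiac form that skeletal muscle also makes during development, and *Acta2* the actin of vascular smooth muscle. In skeletal muscle, *Tpm1* gives the alpha tropomyosin of fast fibers, *Tpm2* the beta tropomyosin and *Tpm3* the slow form, while *Tpm4* is expressed mainly outside the sarcomere. The leiomodins nucleate actin and act at the pointed end of the filament, where tropomodulins such as *Tmod4* cap it.

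A library held between 10130415 and 24576377 reads assigned to genes, and the members took between 4.33% and 8.58% of them, with at least 369 reads for each member in each library. *Kdm1a*, the gene of LSD1, was lower in LSD1-mKO in Gas (log2 fold change -1.56, SE 0.18, adjusted p = 0.0177) and in Sol (log2 fold change -1.66, SE 0.14, adjusted p = 0.000574), with no overlap between the genotypes. The fiber markers followed the muscle labels, since 10 fast fiber genes summed to 177574 to 209707 CPM in WT Gas and 56557 to 69102 CPM in WT Sol, and 7 slow fiber genes to 1009 to 2029 CPM and 27924 to 31817 CPM. CPM values are the reads of a gene relative to the library total, scaled by TMM over the 16 libraries. The mean log2 CPM of 75 ribosomal protein genes stood apart in WT Gas replicate 3 (8.68), in the fifth LSD1-mKO Gas library (8.05) and in the WT Sol library numbered 2 (7.41), against 7.25 to 7.63 in the other Gas and 6.59 to 6.98 in the other Sol libraries. The Gas and Sol libraries carry separate sets of library names, so muscle and library set cannot be told apart, and in whole muscle a smaller share of a fiber type cannot be told apart from less RNA per fiber.

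On the mm10 build (GRCm38.p6), *Acta1* lies on the minus strand at chr8:123891758-123894775, *Actc1* on the minus strand at chr2:114047282-114052875, and *Acta2* on the minus strand at chr19:34240336-34255585. The tropomyosin genes lie at chr9:67022590-67049672 (*Tpm1*, minus strand), chr4:43513726-43523583 (*Tpm2*, minus), chr3:90072651-90100902 (*Tpm3*, plus) and chr8:72135288-72153142 (*Tpm4*, plus). *Lmod2* lies on the plus strand at chr6:24597771-24605414, *Lmod3* on the minus strand at chr6:97238530-97253217 and *Tmod4* on the plus strand at chr3:95122799-95129209. In the annotation *Tmod4* overlaps *Vps72*, *Tpm2* overlaps *Car9*, *Actc1* overlaps *A530058N18Rik*, *Acta1* overlaps *Gm20388*, and *Tpm4* overlaps *Gm16091* and *Gm26586*, and the counting header names no strand option. Of the 75-base words of the longest *Tpm3* transcript, 53.3% also occurred in *Tpm3-rs7*, *Gm4157*, *Gm7839* or *Gm7848*, against 9.44% for *Tpm4* (*Gm7809*), 0.437% for *Acta1* and 0 for the other 7 members. Reads with several best matches were left out of the counts, so the level of *Tpm3* is a lower value than its transcripts would give.

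Upstream sequences are shown for the members around which the results turn: *Acta1* and *Actc1*, the actins of striated muscle, and *Tpm3* and *Lmod2*, the members with the largest fold difference in favor of Sol. They are RefSeq windows of GRCm38.p6 before the annotated start, read 5′ to 3′ along the gene's strand and trimmed of exon bases, and capitals mark a CArG box (the site bound by serum response factor), the MCAT motif or the TATA motif.
Acta1 (chr8:123894776-123895025, minus strand): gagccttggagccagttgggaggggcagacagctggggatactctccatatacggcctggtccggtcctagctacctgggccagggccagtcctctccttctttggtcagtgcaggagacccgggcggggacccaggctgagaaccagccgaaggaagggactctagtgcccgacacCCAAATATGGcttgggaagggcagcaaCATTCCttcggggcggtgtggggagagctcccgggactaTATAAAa
Actc1 (chr2:114052888-114053125, minus strand): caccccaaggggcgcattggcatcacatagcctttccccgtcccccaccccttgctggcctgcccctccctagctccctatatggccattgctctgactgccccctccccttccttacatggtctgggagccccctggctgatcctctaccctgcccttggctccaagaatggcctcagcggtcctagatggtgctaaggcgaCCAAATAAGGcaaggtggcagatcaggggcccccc
Tpm3, upstream start (chr3:90072401-90072648, plus strand): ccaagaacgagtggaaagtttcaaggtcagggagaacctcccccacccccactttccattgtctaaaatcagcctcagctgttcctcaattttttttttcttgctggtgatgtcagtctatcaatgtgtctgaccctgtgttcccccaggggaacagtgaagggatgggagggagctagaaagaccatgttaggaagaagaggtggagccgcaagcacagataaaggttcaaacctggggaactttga
Tpm3, downstream start (chr3:90079271-90079520, plus strand): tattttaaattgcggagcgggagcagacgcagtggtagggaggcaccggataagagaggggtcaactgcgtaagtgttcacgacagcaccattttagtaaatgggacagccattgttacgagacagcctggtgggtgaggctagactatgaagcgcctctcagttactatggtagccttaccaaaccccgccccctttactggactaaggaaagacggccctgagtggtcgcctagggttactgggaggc
Lmod2 (chr6:24597521-24597761, plus strand): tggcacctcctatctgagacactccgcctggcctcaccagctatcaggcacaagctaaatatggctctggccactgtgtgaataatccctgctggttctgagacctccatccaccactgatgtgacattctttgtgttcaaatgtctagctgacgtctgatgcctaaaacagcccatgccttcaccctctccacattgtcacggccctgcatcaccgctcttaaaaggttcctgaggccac

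The CArG box was searched in its strict form CCWWWWWWGG, with W for A or T, so looser forms were not counted. Among the 10 windows of 250 bases available for 9 members (2 for *Tpm3*), a CArG box on either strand occurred only in *Acta1*, beginning 73 bases before the start, and in *Actc1*, 47 bases before it. It occurred in 1.47% of 32851 windows of that length. The MCAT motif, CATTCC on either strand, was found in *Acta1*, *Acta2* and *Tpm1* (12.6% of all windows). Annotated exon took 217 of the 250 bases in the *Acta2* window and 193 in that of *Tpm1*. The MCAT matches of *Acta2* and *Tpm1* lie in this exon sequence, and most of these windows is not sequence outside the gene's exons. The TATA motif, searched as TATAAA along the gene's strand, was found in *Acta1* alone among the members (7.59%), and no window of theirs held a MEF2 site (2.92%). The E-box CANNTG occurred in 7 of the 9 members with a window, in all of them but *Actc1* and *Tpm4*, and in 66.2% of all windows. These matches describe letters in a window. Their part in the levels of the members was not tested.

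**Figure D1:**
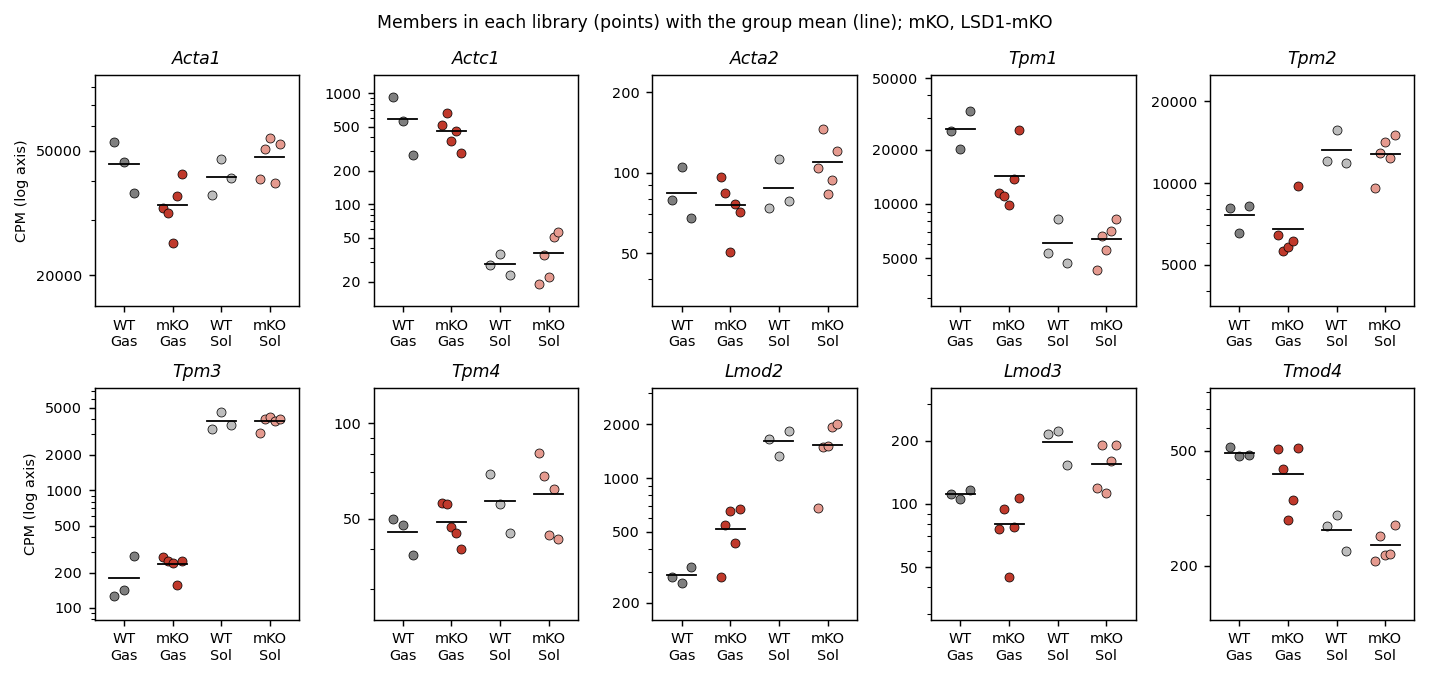
Expression of the 10 members in each library, as TMM-scaled CPM on log axes; points are libraries (3 WT and 5 LSD1-mKO, mKO, for each muscle) and lines the group means. *Actc1* and *Tpm1* stood higher in Gas and *Tpm3* and *Lmod2* higher in Sol in every library of both genotypes, and the genotypes overlapped in every panel.

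Per length of exon, *Acta1* was the highest member in all 4 groups, at 31382 ± 5795 CPM per kilobase in WT Gas, 23171 ± 4246 in LSD1-mKO Gas, 28555 ± 3742 in WT Sol and 32918 ± 4930.3 in LSD1-mKO Sol (mean ± SD). In WT Gas, *Tpm1* (6592 ± 1574) and *Tpm2* (3209 ± 397) came next, then *Actc1* (398 ± 218) and *Tmod4* (397 ± 16.2), whose libraries overlapped, and *Lmod2* (145 ± 15.5). *Tpm3* (54.5 ± 24.5), *Lmod3* (50.3 ± 2.50) and *Acta2* (41.3 ± 9.40) overlapped each with the next, and *Tpm4* was the lowest (21.3 ± 2.86). The order in Sol was another one. In WT Sol, *Tpm2* (5549 ± 904) followed *Acta1*, then *Tpm1* (1533 ± 474) and *Tpm3* (1152 ± 211), whose libraries overlapped. The value of *Tpm3* lacks its reads with several best matches, so its place below *Tpm1* is not settled. *Lmod2* (813 ± 133) stood above *Tmod4* (215 ± 30.4), *Lmod3* (89.1 ± 17.4) and *Acta2* (43.3 ± 10.4), and *Tpm4* (26.6 ± 5.73) overlapped with *Actc1* (19.6 ± 4.22), the lowest member there. Cardiac actin thus held place 4 in WT Gas and place 10 in WT Sol. In LSD1-mKO Gas the libraries of *Tpm1* and *Tpm2* overlapped, as did those of *Tmod4*, *Actc1* and *Lmod2*, each with its neighbor.

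Gas and Sol were compared in each genotype to place the members on the scale from fast to slow muscle. In WT, 5 of the 10 members were called (adjusted p under 0.05, edgeR quasi-likelihood F-test), against 17.0% of all genes tested. *Actc1*, *Tpm1* and *Tmod4* were higher in Gas (8.25% of all genes were called in that direction) and *Tpm3* and *Lmod2* lower (8.75%). In LSD1-mKO 8 members were called, against 24.5% of all genes, the same 5 in the same directions and *Tpm2*, *Lmod3* and *Acta2*, all lower in Gas (11.6% of all genes were called as higher and 12.9% as lower). The libraries of the muscles did not overlap for 7 members in WT (30.4% of all genes) and 6 in LSD1-mKO (20.9%). *Acta1* and *Tpm4* were not called in either genotype.

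Among the tropomyosins, the slow form *Tpm3* differed most. Its level was 127, 141 and 275 CPM in the WT Gas libraries and 3281, 4619.8 and 3588 CPM in WT Sol, in the order of replicate number. In LSD1-mKO it was 271, 251, 242, 158 and 248 CPM in Gas and 3075, 4055, 4151, 3867 and 4022 CPM in Sol. Every Sol library was above every Gas library in each genotype, and the WT Gas library with the highest value was replicate 3. The level in Gas was 20.5-fold lower in WT, log2 fold change -4.36 (95% interval -5.06 to -3.65, adjusted p = 5.10e-07), and 16.6-fold lower in LSD1-mKO, log2 fold change -4.05 (95% interval -4.59 to -3.52, adjusted p = 2.58e-08).

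*Tpm1*, the fast-fiber alpha tropomyosin, went the other way. It was measured at 25461, 20253 and 32679.8 CPM in WT Gas and 5300.2, 8217 and 4712 CPM in WT Sol. In LSD1-mKO it was measured at 11419, 11006, 9899, 13688 and 25634 CPM in Gas and 4309, 6654, 5561, 7069.6 and 8191 CPM in Sol. No Gas library reached down to Sol, and 4 of the 5 LSD1-mKO Gas libraries lay below all WT Gas libraries, the exception being replicate 5. The level in Gas was 4.41-fold higher in WT, log2 fold change 2.14 (95% interval 1.33 to 2.95, adjusted p = 0.00103), and 2.23-fold higher in LSD1-mKO, log2 fold change 1.16 (95% interval 0.55 to 1.77, adjusted p = 0.00730). With a covariate for the ribosomal protein level, the latter fell to 0.57 with an adjusted p of 0.0880, the highest among its alternatives (0.000236 to 0.0880). That level was 7.25 to 8.05 in LSD1-mKO Gas and 6.81 to 6.98 in LSD1-mKO Sol, so the covariate and the muscle cannot be fully told apart.

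*Tpm2*, the beta tropomyosin, was measured at 8125, 6554 and 8253 CPM in WT Gas and 12068, 15701 and 11886 CPM in WT Sol. The LSD1-mKO libraries gave 6412, 5618, 5824, 6134 and 9729.8 CPM in Gas and 9606, 12915, 14139, 12406 and 15069.9 CPM in Sol. The WT muscles did not overlap, and in LSD1-mKO only Gas replicate 5 reached above the lowest Sol library. The difference was not called in WT, log2 fold change -0.76 (95% interval -1.31 to -0.22, adjusted p = 0.0512), where the alternatives ranged from 0.00273 to 0.119, and was called in LSD1-mKO, log2 fold change -0.94 (95% interval -1.37 to -0.52, adjusted p = 0.00240). *Tpm4*, at 45.3 ± 6.09 CPM in WT Gas (SD, n = 3) against 56.7 ± 12.2 CPM in WT Sol (SD, n = 3), overlapped between muscles in both genotypes, log2 fold change -0.30 (95% interval -0.78 to 0.17, adjusted p = 0.378) in WT and log2 fold change -0.31 (95% interval -0.68 to 0.056, adjusted p = 0.205) in LSD1-mKO.

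**Figure D2:**
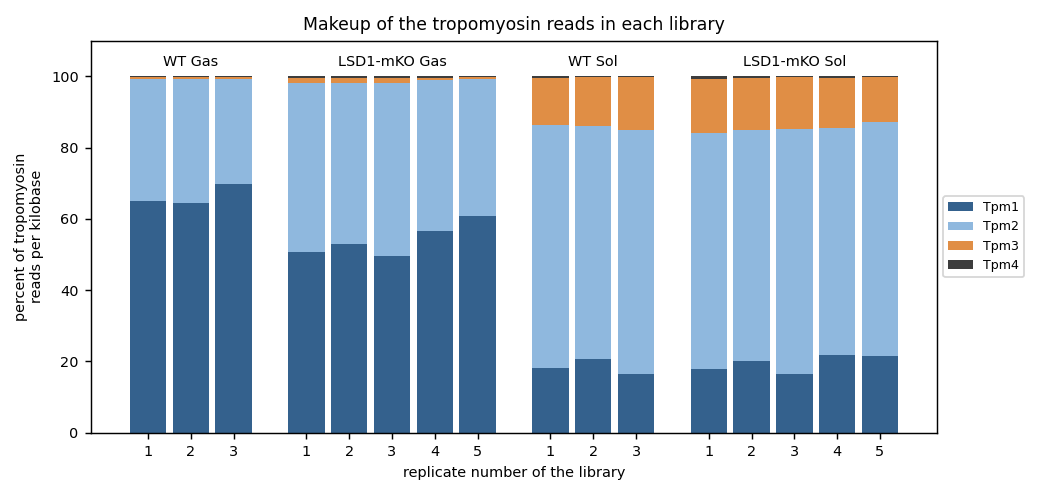
Percent of tropomyosin reads per kilobase of exon taken by *Tpm1*, *Tpm2*, *Tpm3* and *Tpm4* in each library, with bars numbered by replicate within each group. *Tpm1* held 64.5% to 69.8% in WT Gas, 49.6% to 60.7% in LSD1-mKO Gas and 16.3% to 21.8% in Sol.

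As shares of tropomyosin reads per kilobase, *Tpm1* held 64.9, 64.5 and 69.8% in WT Gas and 18.0, 20.6 and 16.3% in WT Sol. The share of *Tpm2* was 34.5, 34.7 and 29.3% in WT Gas and 68.3, 65.4 and 68.5% in WT Sol. *Tpm3* held 0.387, 0.535 and 0.700% in WT Gas and 13.3, 13.8 and 14.8% in WT Sol. Because reads of *Tpm3* with several best matches were left out, its share is a lower value too, by an amount that was not measured. The main tropomyosin message was thus *Tpm1* in Gas and *Tpm2* in Sol, and *Tpm4* held at most 0.624% in any of the 16 libraries. The stacked plot of the tropomyosin shares shows *Tpm1* as the largest part of every Gas bar and *Tpm2* as the largest part of every Sol bar.

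**Figure D3:**
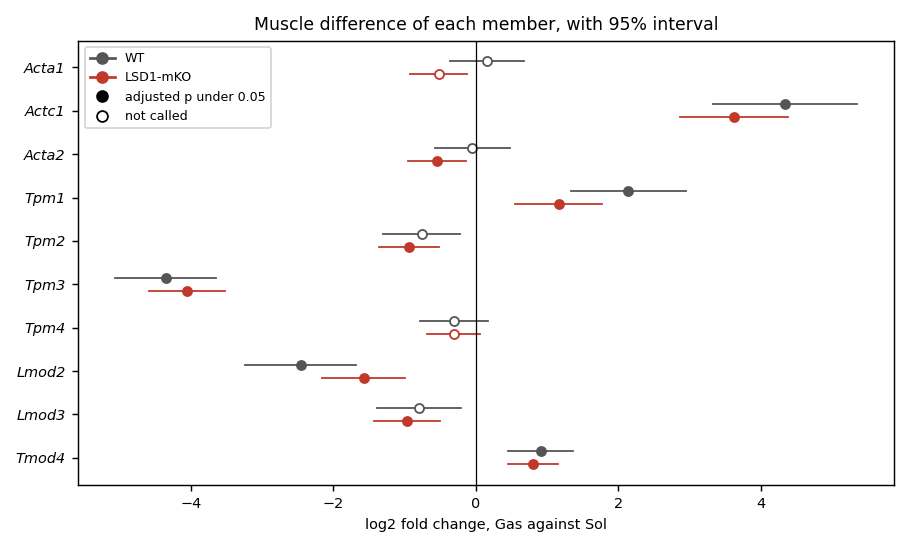
Log2 fold change of each member in Gas against Sol, in WT and in LSD1-mKO, with 95% intervals; filled points had an adjusted p under 0.05. *Actc1* (4.34 in WT) and *Tpm3* (-4.36 in WT) lie at opposite ends, and the intervals of *Acta1*, *Acta2* and *Tpm4* in WT include 0.

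Of the actins, *Actc1* differed most between muscles. Its level was 919, 561 and 278 CPM in WT Gas and 28.4, 35.4 and 23.0 CPM in WT Sol. In LSD1-mKO it was 512, 662, 368, 455 and 287 CPM in Gas and 19.2, 34.5, 21.9, 50.7 and 56.0 CPM in Sol. The lowest Gas library was several times above the highest Sol library in each genotype. Cardiac actin was 20.2-fold higher in Gas in WT, log2 fold change 4.34 (95% interval 3.33 to 5.35, adjusted p = 1.35e-05), and 12.3-fold in LSD1-mKO, log2 fold change 3.62 (95% interval 2.86 to 4.38, adjusted p = 2.20e-06). Of the heart markers, *Myh6*, the cardiac alpha myosin, was lower in Gas (2.58 ± 0.91 CPM against 14.3 ± 2.45 CPM in WT, mean ± SD, n = 3), while *Ryr2* (1.02 ± 1.03 CPM against 0.74 ± 0.20 CPM) and *Nppa* (0.23 ± 0.13 CPM against 0.17 ± 0.096 CPM) overlapped between the WT muscles and *Myl7* had no read in WT. Of the 6 genes of developing or regenerating muscle, *Myh3* (6.09 ± 1.69 CPM against 53.9 ± 18.7 CPM in WT) and *Ncam1* (6.89 ± 1.29 CPM against 19.2 ± 5.40 CPM) were lower in Gas, *Myh8* was not called (log2 fold change -1.21, adjusted p = 0.0915), *Myl4* and *Myog* had positive log2 fold changes of 0.82 and 0.43 that were not called, and *Chrng* had 6 reads in all in WT Gas and 5 in WT Sol. The part of these markers in the *Actc1* difference was not tested.

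*Acta1* was measured at 53405, 46044 and 36685 CPM in WT Gas and 36162, 46946 and 40763 CPM in WT Sol. In LSD1-mKO the values were 32684, 31544, 25391, 35713 and 42198 CPM in Gas and 40545, 50618, 54828, 39404 and 52599.6 CPM in Sol. The muscles overlapped in both genotypes, and the fold changes had opposite signs, log2 fold change 0.15 (95% interval -0.37 to 0.67, adjusted p = 0.713) in WT and log2 fold change -0.52 (95% interval -0.93 to -0.12, adjusted p = 0.0551) in LSD1-mKO, neither of them called. The LSD1-mKO difference crossed the threshold in some alternatives, whose adjusted p ranged from 0.00849 to 0.145. Because *Acta1* was much more abundant, *Actc1* made up 1.66, 1.18 and 0.738% of the reads per kilobase of both actins in WT Gas and 0.0770, 0.0739 and 0.0553% in WT Sol.

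*Acta2* was measured at 79.2, 105 and 67.8 CPM in WT Gas and 73.5, 112 and 78.3 CPM in WT Sol. In LSD1-mKO it was measured at 96.7, 83.9, 50.6, 76.7 and 71.4 CPM in Gas and 105, 146, 83.4, 93.7 and 121 CPM in Sol. The muscles overlapped in both genotypes. The WT difference was not called, log2 fold change -0.052 (95% interval -0.58 to 0.47, adjusted p = 0.909), and the LSD1-mKO difference was just past the threshold, log2 fold change -0.55 (95% interval -0.96 to -0.14, adjusted p = 0.0462), with alternatives from 0.0168 to 0.163. It was lost in 11 of the 16 fits without 1 library, with the highest adjusted p without LSD1-mKO Sol replicate 2 (0.163). Smooth muscle and pericyte markers (8 genes) summed to 374 to 534 CPM in LSD1-mKO Gas and 554 to 609 CPM in LSD1-mKO Sol. By edgeR 0 of the 8 were called (24.5% of all genes), and 0 had an unadjusted p under 0.05. Their part in the *Acta2* difference was not tested.

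**Figure D4:**
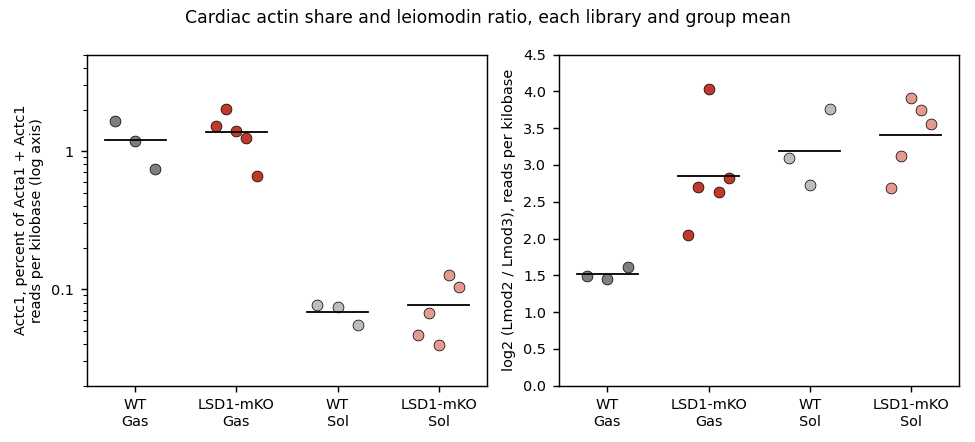
Left, *Actc1* as a percent of *Acta1* and *Actc1* reads per kilobase (log axis); right, log2 ratio of *Lmod2* to *Lmod3* reads per kilobase; points are libraries and lines group means. The *Actc1* share was 0.663% to 2.02% in Gas and 0.0392% to 0.126% in Sol, and the leiomodin ratio of WT Gas (1.45 to 1.61) lay below all other libraries.

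At the filament ends, *Lmod2* was measured at 281, 258 and 318 CPM in WT Gas and 1647, 1324 and 1847 CPM in WT Sol. The LSD1-mKO values were 281, 546, 655, 431 and 676 CPM in Gas and 682, 1491, 1513, 1928 and 2001 CPM in Sol. The muscles did not overlap, although in LSD1-mKO the lowest Sol library, replicate 1, was close to the highest Gas library. *Lmod2* was 5.50-fold lower in Gas in WT, log2 fold change -2.46 (95% interval -3.24 to -1.68, adjusted p = 0.000252), and 2.98-fold lower in LSD1-mKO, log2 fold change -1.57 (95% interval -2.16 to -0.99, adjusted p = 0.000533). *Lmod3*, the other leiomodin of skeletal muscle, was measured at 112, 106 and 117 CPM in WT Gas and 215, 224 and 153 CPM in WT Sol. In LSD1-mKO it was measured at 76.1, 94.5, 44.9, 77.8 and 107 CPM in Gas and 119, 192, 113, 160.3 and 190.4 CPM in Sol. Again no library of Gas reached Sol within a genotype. The difference was called in LSD1-mKO, log2 fold change -0.97 (95% interval -1.43 to -0.51, adjusted p = 0.00374), and not in WT, log2 fold change -0.80 (95% interval -1.39 to -0.21, adjusted p = 0.0593), with alternatives from 0.0248 to 0.168.

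*Tmod4* was the end-binding member that was higher in Gas. Its level was 516, 480.0 and 482 CPM in WT Gas and 275, 299.9 and 226 CPM in WT Sol. In LSD1-mKO it was 509, 432, 288, 338 and 509 CPM in Gas and 208, 255, 218, 219 and 277 CPM in Sol. The muscles did not overlap in either genotype. The difference was 1.88-fold in WT, log2 fold change 0.91 (95% interval 0.45 to 1.37, adjusted p = 0.00895), and 1.74-fold in LSD1-mKO, log2 fold change 0.80 (95% interval 0.44 to 1.16, adjusted p = 0.00224). In WT the call ended with the ribosomal protein covariate (adjusted p = 0.105) and without WT Sol replicate 3 (adjusted p = 0.0592), and over all its alternatives the adjusted p ranged from 0.000436 to 0.105. The covariate itself differed between the muscles, at 7.35 to 8.68 in WT Gas and 6.59 to 7.41 in WT Sol.

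LSD1-mKO was compared with WT in Gas to ask which genes differ in the fast muscle after LSD1 loss under dexamethasone. No member was called, 0 of 10 against 0.0307% of 13040 genes, and the edgeR exact test and DESeq2 called 0 as well. At an unadjusted p under 0.05 stood 2 members, *Tpm1* and *Lmod2*, against 9.06% of all genes. The libraries of the genotypes overlapped for all 10 members (6.94% of all genes did not overlap). The median log2 fold change of the members was -0.26, beside 0.01 for all genes tested, and 3 of the 10 were positive.

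From the values given above, *Tpm1* in Gas came to 26131 ± 6241 CPM in WT (SD, n = 3), and in LSD1-mKO to 14329 ± 6468 CPM (SD, n = 5), log2 fold change -0.92 (95% interval -1.70 to -0.13, adjusted p = 0.523). *Lmod2* came to 286 ± 30.5 CPM and 518 ± 164 CPM, log2 fold change 0.81 (95% interval 0.16 to 1.47, adjusted p = 0.487). The overlap rested on LSD1-mKO Gas replicate 5 for *Tpm1* and on LSD1-mKO Gas replicate 1 for *Lmod2*. Both members missed the threshold once adjusted over all genes, and their intervals exclude 0 only without that adjustment. *Acta1*, at 45378 ± 8379.6 CPM and 33506 ± 6139.9 CPM, gave log2 fold change -0.47 (95% interval -1.02 to 0.074, adjusted p = 0.555). *Lmod3*, at 111 ± 5.53 CPM and 80.1 ± 23.5 CPM, gave log2 fold change -0.52 (95% interval -1.09 to 0.049, adjusted p = 0.555), and a single LSD1-mKO library, replicate 5, reached into the range of WT. The other 6 had log2 fold changes from -0.38 (*Actc1*) to 0.30 (*Tpm3*), with adjusted p from 0.655 to 0.892.

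**Figure D5:**
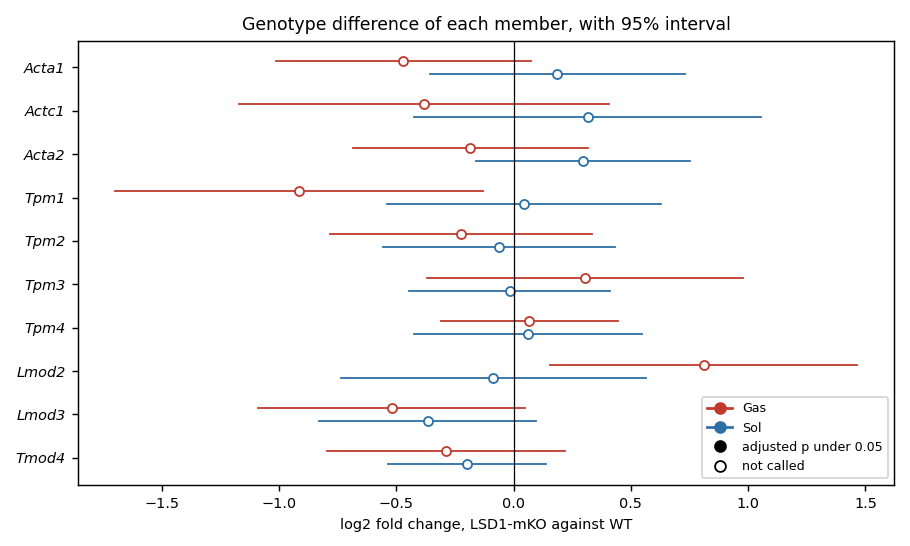
Log2 fold change of each member in LSD1-mKO against WT, in Gas and in Sol, with unadjusted 95% intervals; open points had an adjusted p of 0.05 or more, which held for all 10 members in both muscles. The intervals of *Tpm1* and *Lmod2* in Gas exclude 0, and all 10 intervals in Sol include it.

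Within the tropomyosins and the leiomodins, the shares of *Tpm1*, *Tpm2* and *Tpm3* and the leiomodin ratio did not overlap between genotypes in Gas, while the share of *Tpm4* did. The *Tpm1* share of tropomyosin was 50.7, 53.0, 49.6, 56.6 and 60.7% in LSD1-mKO Gas, below the WT Gas range of 64.5% to 69.8%. The *Tpm2* share was 47.4, 45.0, 48.5, 42.2 and 38.4%, above the WT range of 29.3% to 34.7%. The shares of a library make up the whole, so with *Tpm3* and *Tpm4* small the *Tpm2* share rises as that of *Tpm1* falls. The level of *Tpm2* itself was not higher, at 6743 ± 1696.5 CPM against 7644 ± 946 CPM in WT Gas. Its log2 fold change by edgeR was -0.23 (95% interval -0.79 to 0.34, adjusted p = 0.738). The *Tpm3* share, at 1.43, 1.44, 1.45, 0.779 and 0.702%, touched the top of the WT range of 0.387% to 0.700% without overlap. *Tpm4* held 0.462, 0.499, 0.439, 0.347 and 0.177%, and replicate 5 lay inside the WT range of 0.153% to 0.283%. The log2 ratio of *Lmod2* to *Lmod3* was 1.50, 1.45 and 1.61 in WT Gas and 2.05, 2.70, 4.03, 2.64 and 2.82 in LSD1-mKO Gas, again with no overlap. The share of *Actc1* among the striated actins overlapped, at 1.51, 2.02, 1.40, 1.23 and 0.663% in LSD1-mKO Gas. These shares are scores over members chosen with results of these data known, so they are descriptions without a test. No rate over all genes stands beside them. Fast fiber markers summed to 139401 to 185387 CPM in LSD1-mKO Gas against 177574 to 209707 CPM in WT, and the ranges overlapped. By edgeR 0 of 10 were called and 4 had an unadjusted p under 0.05 (9.06% of all genes). Of the 10, 3 had positive log2 fold changes: *Actn3* (0.53, without overlap), *Atp2a1* (0.25) and *Myh2* (0.14). Slow fiber markers summed to 1651 to 2584 CPM against 1009 to 2029 CPM, with 0 of 7 called and 2 at an unadjusted p under 0.05. Their part in the shares was not tested.

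In Sol, where the same comparison addresses the slow muscle, 0 of 10 members were called against 0.967% of 13342 genes, and the edgeR exact test and DESeq2 also called 0. Without adjustment 0 members passed 0.05 (15.5% of all genes did), and the genotypes overlapped for all 10 (10.9% of all genes did not overlap). The values were close for *Tpm2*, *Tpm1* and *Tpm3*. *Tpm2* stood at 13219 ± 2152 CPM in WT and 12827 ± 2080.5 CPM in LSD1-mKO, log2 fold change -0.062 (95% interval -0.56 to 0.43, adjusted p = 0.932). *Tpm1* stood at 6076 ± 1877 CPM and 6357 ± 1482 CPM, log2 fold change 0.043 (95% interval -0.54 to 0.63, adjusted p = 0.963). *Tpm3* stood at 3829 ± 701 CPM and 3834 ± 436 CPM, log2 fold change -0.018 (95% interval -0.45 to 0.41, adjusted p = 0.982). For *Acta1* the result was log2 fold change 0.19 (95% interval -0.36 to 0.73, adjusted p = 0.777), and for *Lmod2* log2 fold change -0.088 (95% interval -0.74 to 0.56, adjusted p = 0.927). The smallest unadjusted p was that of *Lmod3*, 0.109, with log2 fold change -0.37 (95% interval -0.83 to 0.096, adjusted p = 0.442). Log2 fold changes of the 10 members ran from -0.37 to 0.32 (*Actc1*), with a median of 0.013 beside -0.011 for all genes. The shares overlapped too: *Tpm1* held 17.9, 20.1, 16.3, 21.8 and 21.5% of tropomyosin in LSD1-mKO Sol and *Tpm3* 15.2, 14.6, 14.5, 14.2 and 12.6%. The log2 ratio of *Lmod2* to *Lmod3* was 3.10, 2.73 and 3.76 in WT Sol and 2.68, 3.12, 3.91, 3.75 and 3.56 in LSD1-mKO Sol.

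Whether the genotype difference differed between muscles was tested as an interaction over the 16 libraries, with positive values where LSD1-mKO against WT was higher in Gas than in Sol. No member and none of the 13749 genes was called by edgeR, while DESeq2 called 20 genes and 0 members. At an unadjusted p under 0.05 stood 1 member, *Acta1* (4.88% of all genes), with log2 fold change -0.67 (95% interval -1.33 to -0.017, adjusted p = 0.987). *Tpm1* gave log2 fold change -0.98 (95% interval -1.96 to 0.00046, adjusted p = 0.987) and *Lmod2* log2 fold change 0.89 (95% interval -0.049 to 1.82, adjusted p = 0.987). The other 7 ranged from -0.72 (*Actc1*) to 0.30 (*Tpm3*). The larger number of members called between muscles in LSD1-mKO than in WT is therefore not a tested difference, and LSD1-mKO had 5 libraries a muscle where WT had 3.

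The 30 partner genes of the thin filament (troponins, nebulins, caps, turnover factors, chaperones, Z-disc anchors, and non-muscle and smooth muscle actins) were described in the same way. In Gas 0 of the 29 tested were called between genotypes by edgeR (0.0307% of all genes). An unadjusted p under 0.05 was found for 6, against 9.06% of all genes. The smallest belonged to the Z-disc protein gene *Actn2*, at 1.05 (SE 0.23, adjusted p = 0.248). In Sol 1 of 30 was called (0.967% of all genes) and 4 had an unadjusted p under 0.05 (15.5% of all genes). The called partner was *Tmod1*, a tropomodulin that caps the pointed end like *Tmod4*. It was higher in LSD1-mKO, at 1.07 (SE 0.16, adjusted p = 0.0155), with 65.4 to 90.5 CPM in WT and 130 to 189 CPM in LSD1-mKO. *Tmod4* in Sol stood at -0.20 (SE 0.15, adjusted p = 0.586). In the interaction 0 of 30 were called, and 2 had an unadjusted p under 0.05 (4.88% of all genes). The smallest p was that of the non-muscle actin *Actb*, at -0.59 (SE 0.23, adjusted p = 0.974). The median log2 fold change of the partners was 0.13 in Gas and 0.092 in Sol.

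Between muscles 13 of the 30 partners were called in WT, beside 17.0% of all genes, and 15 in LSD1-mKO, beside 24.5%. Higher in Gas in WT were the fast troponins (*Tnnt3* 1.52, *Tnni2* 2.03, *Tnnc2* 2.03), *Actn3* 5.25 and the barbed-end cap *Capzb* 0.70. Lower were the slow or cardiac troponins (*Tnnt1* -4.23, *Tnni1* -4.26, *Tnnc1* -3.61, *Tnnt2* -1.31), *Actn2* -2.22, the nebulin relative *Nrap* -1.40, *Xirp1* -2.35 and the actin-severing *Cfl2* -0.96. In LSD1-mKO the same partners were called in the same directions except *Capzb*, which was not, and *Unc45b* 0.45, a myosin chaperone, was higher and *Xirp2* -1.66 and *Klhl41* -0.78 lower. The troponins thus split by fiber type as *Tpm1* and *Tpm3* did.

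Serum response factor and its cofactors drive many actin genes, and 11 genes of that pathway were counted. Between genotypes 0 of 11 were called in Gas by edgeR (0.0307% of all genes), and 0 had an unadjusted p under 0.05 (9.06% of all genes). The smallest p was that of *Srf*, at -0.36 (SE 0.18, adjusted p = 0.555). In Sol 0 of 11 were called as well (0.967% of all genes). An unadjusted p under 0.05 was found for 1 (15.5% of all genes), *Vcl*, at 0.44 (SE 0.18, adjusted p = 0.261). In the interaction 0 of 11 were called, with 0 at an unadjusted p under 0.05 (4.88% of all genes) and the smallest p for *Srf*, at -0.39 (SE 0.23, adjusted p = 0.987). Their median log2 fold change was 0.083 in Gas and 0.32 in Sol. Between muscles 2 of the 11 were called in WT (17.0% of all genes), *Srf* 0.57 higher and *Fhl2* -2.80 lower in Gas, and 4 in LSD1-mKO (24.5% of all genes), all lower in Gas: *Fhl2* -2.74, *Ctgf* -1.33, *Cyr61* -1.09 and *Egr1* -0.68.

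The genes whose pattern over the 16 libraries was most like that of a member were found by the root mean square difference of centred log2 CPM, among 10757 genes. For *Tpm3* they were *Tnni1* (0.31) and *Tnnt1* (0.31), the slow troponin I and slow troponin T genes. For *Tpm1* they were *2310040G24Rik* (0.22) and *Tnnc2* (0.24), the second of them the fast troponin C gene, and for *Lmod2* *Mybpc1* (0.31) and *Bhlhb9* (0.34), the first of them the slow myosin-binding protein C gene. For *Actc1* they were *Smox* (0.66) and *Gpd1* (0.69), the largest differences of any member. The differences are not divided by a gene's own SD over the libraries, which was 2.09 for *Actc1*, 2.20 for *Tpm3* and 1.11 for *Lmod2*. For *Acta1* the nearest were *Fez2* (0.17) and *Zdhhc4* (0.19), for *Acta2* *Lman2l* (0.19) and *Supt3* (0.20), and for *Tpm4* *Kdelc1* (0.16) and *Scpep1* (0.16), members whose own SD was 0.31, 0.37 and 0.31. The gene *Ckmt2*, of mitochondrial creatine kinase, was near both *Tpm2* and *Lmod3*, beside *Coq7* for *Tpm2* and *Bzw2* for *Lmod3*, and for *Tmod4* the nearest were *Rpl3l* (0.14) and *Smarcd3* (0.16). The 16 points share their libraries.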

How the data were processed

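Poly(A) RNA of Gas and Sol was sequenced by the authors as 75 bp single-end reads and aligned to mm10 with STAR. Per the file headers, the deposited raw read counts were made with featureCounts 1.5.2 over the exons of each gene, and reads matching several places or genes were left out. The authors' tables of their own comparisons (log2 fold changes and p-values) were not used. Genotype and muscle define the groups, as labelled, and 0 count columns lacked a sample. The labels do not say whether the Gas and Sol libraries came from the same mice.

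All genes were fitted with edgeR 4.0.16 in R 4.3.3: filterByExpr with a minimum count of 10, TMM scaling, the two-sided quasi-likelihood F-test, and Benjamini-Hochberg adjustment over all genes tested. All 10 members passed the filter. LSD1-mKO was compared with WT within each muscle, and the 16 libraries were fitted together for the interaction and for Gas against Sol. Standard errors follow from the fold change and its F statistic. The scripts were tested on simulated data. Alternatives were RLE scaling, no filter, DESeq2 1.42.0, a ribosomal protein covariate, a replicate block, the edgeR exact test, a fit over 16 libraries and each library left out. Leaving out together the 3 libraries of high ribosomal protein level, and the longest transcript as the length, were chosen after seeing the data.

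Levels per length divide CPM by the merged exons of the RefSeq-matched transcripts in GENCODE vM21, since the count tables hold no length. Promoters come from RefSeq (GRCm38.p6), with 9 of 10 members matched, all but *Lmod3*. The smallest chi-square per degree of freedom between the counts of replicates was 17.8, so replicates differed beyond sampling noise. The study describes the Sol data by mice, with fewer LSD1-mKO mice than the 5 libraries used here, and no source ties a library to a mouse, so p-values measure the spread between these libraries. Same-numbered Gas and Sol libraries of LSD1-mKO deviated together from their group means (r = 0.30 to 0.46 in 5 of 5 pairs, each library correlating best with its own number). Those of WT did not (-0.64 to 0.19). The numbers were therefore taken to pair the LSD1-mKO libraries, from the data and not from the labels, and the block stayed an alternative. All members were tested in every comparison, and between genotypes and in the interaction some are given only within a range. Also named are the 2 genes of most like pattern for each (at least 50 reads on average, prior count 2) and *Kdm1a*. Of the partner and serum response factor lists, the called genes are named, or else the gene of smallest p. Fiber-type genes are named beside results. The members, gene lists and marker lists were chosen with earlier results of these data known.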

Additional observations from a re-analysis of the deposited data

Results flagged for a closer look

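In each LSD1-mKO group of 5 libraries, the levels of the 10 members, the shares within the families and the percent of reads in the members were searched for a single library far from the others, 34 values in all. In 4 of them the gap of the highest or lowest library to its nearest neighbor exceeded 0.71 of the range, where chance gives about 1 in 20, or 1.7. *Tpm1* stood at 25634 CPM in LSD1-mKO Gas replicate 5, against 9899 to 13688 CPM in the other 4 libraries. *Tpm2* stood in the same library at 9729.8 CPM, against 5618 to 6412 CPM. That library had a mean log2 CPM of ribosomal protein genes of 8.05, against 7.25 to 7.59 in the other 4. *Tpm3* was low in LSD1-mKO Gas replicate 4, at 158 CPM against 242 to 271 CPM, and in LSD1-mKO Sol replicate 1, at 3075 CPM against 3867 to 4151 CPM. Without LSD1-mKO Gas replicate 5 the difference of *Tpm1* between the genotypes in Gas was -1.25 on the log2 scale (adjusted p = 0.173), and no member was called there without any other single library either. Whether the ribosomal protein level has a part in the *Tpm1* and *Tpm2* values was not tested.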

How the results depend on the processing

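In Gas and Sol between genotypes and in the interaction, 0 members were called under each alternative run, and between muscles *Actc1*, *Tpm3* and *Lmod2* were called in both genotypes under all of them. *Tpm1* and *Tmod4* lost a call under the ribosomal protein covariate (0.57 in LSD1-mKO and 0.59 in WT), *Tmod4* also without WT Sol replicate 3, and *Acta2* in LSD1-mKO under RLE scaling, no filter, the covariate, without the 3 libraries of high ribosomal protein level (adjusted p = 0.0505) and in 11 of the 16 fits without 1 library (adjusted p = 0.0549 to 0.163). Members called numbered 5 to 7 between the WT muscles and 7 to 9 between the LSD1-mKO muscles (without 1 library, 4 to 7 and 7 to 9). The causes were not tested. With 3 WT libraries in a muscle, the differences inside the printed interval of a member that was not called are not excluded.

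Genes called in Gas between genotypes numbered 10 without a filter, 123 by DESeq2, 104 by the exact test and 62 in the fit over 16 libraries, and 1 to 7 without 1 library (4 with all). In Sol there were 336 without a filter, 583 by DESeq2, 560 by the exact test, 289 with the ribosomal protein covariate and 23 without the 3 libraries of high ribosomal protein level, and 11 to 228 without 1 library (129 with all). The interaction gave 20 by DESeq2 and 0 to 1 without 1 library. Between muscles, leaving out 1 library gave 1132 to 2839 genes in WT and 2618 to 4409 in LSD1-mKO.

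With the replicate block, Sol gave 412 genes between genotypes and the interaction 1, *Actc1* and *Tpm1* in Sol turned to -0.24 and -0.14, *Tpm4* in the interaction to 0.0058, and *Lmod3* between the WT muscles became called (adjusted p = 0.0291). Same-numbered WT and LSD1-mKO libraries correlated at 0.16, 0.42 and -0.20 in Gas and at 0.11, -0.0036 and 0.19 in Sol. For same-numbered Gas and Sol libraries of WT the correlation ran from -0.64 to 0.19. With 3 libraries a muscle this does not tell whether they came from the same mice. Same-numbered Gas and Sol libraries of LSD1-mKO correlated at 0.30 to 0.46. With the block, Gas against Sol in LSD1-mKO gave 8 members and 3063 genes (8 and 3367 without), and each of the 10 members kept its side of the threshold.

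Signs changed only for differences that were not called. The covariate gave -0.011 for *Tpm4* in Gas, 0.0011 for *Tpm2* and 0.0051 for *Tmod4* in the interaction, and -0.014 for *Acta1* between the WT muscles. In the interaction *Tpm4* gave 0.0026 under RLE scaling, 0.029 without a filter and 0.0041 by DESeq2. In Sol *Tpm3* gave 0.0043 without a filter. Without the 3 libraries of high ribosomal protein level, *Tpm2* and *Tpm3* in Sol gave 0.10 and 0.16, and *Acta2* between the WT muscles 0.28. Leaving out 1 library gave -0.68 to 0.074 for *Actc1* and -0.29 to 0.0052 for *Acta2* in Gas, and in Sol -0.094 to 0.35 for *Tpm1*, -0.12 to 0.10 for *Tpm2*, -0.11 to 0.16 for *Tpm3*, -0.072 to 0.23 for *Tpm4* and -0.20 to 0.12 for *Lmod2*. In the interaction it gave -0.15 to 0.16 for *Tpm4*, -0.30 to 0.015 for *Lmod3* and -0.20 to 0.032 for *Tmod4*, and between the WT muscles -0.24 to 0.17 for *Acta2*.

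With the longest transcript as the length, *Tpm1* came to 9042 CPM per kilobase in WT Gas, 2103 in WT Sol and 2199.7 in LSD1-mKO Sol, *Tpm2* to 3643 in WT Gas, and *Tpm3* to 81.0 in WT Gas, 105 in LSD1-mKO Gas, 1715 in WT Sol and 1717 in LSD1-mKO Sol. Without division by length the mean share of *Tpm1* was 76.6% in WT Gas, 66.0% in LSD1-mKO Gas, 25.9% in WT Sol and 27.4% in LSD1-mKO Sol, that of *Tpm2* 22.8%, 32.6%, 57.3% and 55.6% in the same order, that of *Tpm3* 16.6% and 16.7% in WT and LSD1-mKO Sol, and that of *Tpm4* 0.139% and 0.253% in WT and LSD1-mKO Gas. The mean log2 ratio of *Lmod2* to *Lmod3* in WT Gas was then 1.35.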

Other observations

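Markers of other cell types were summed as a background to the members. Between genotypes 0 genes of any marker list were called by edgeR in either muscle (0.0307% of all genes in Gas and 0.967% in Sol). The 6 genes of developing or regenerating muscle, *Myh3* and *Myh8* among them, all had positive log2 fold changes in Sol, with a median of 1.20. An unadjusted p under 0.05 was found for 6 of 6, against 15.5% of all genes. They summed to 176 to 362 CPM in LSD1-mKO Sol against 88.8 to 123 CPM in WT Sol. In Gas the sum was 40.9 to 159 CPM in LSD1-mKO and 42.0 to 53.9 CPM in WT. Fibroblast markers (5 genes) summed to 783 to 924 CPM in LSD1-mKO Gas and 1122 to 1532 CPM in WT Gas, with 1 of 5 at an unadjusted p under 0.05 (9.06% of all genes). Endothelial (4 genes) and smooth muscle markers (8 genes) had 0 at that level in Gas. In Sol 2 of 5 fibroblast markers had an unadjusted p under 0.05 (15.5% of all genes), *Col3a1* (log2 fold change 1.53, adjusted p = 0.174) and *Dcn* (-0.60, adjusted p = 0.266). So did 2 of 8 smooth muscle markers, *Cnn1* (log2 fold change 1.21, adjusted p = 0.0895, without overlap) and *Myh11* (0.38, adjusted p = 0.247).

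Between muscles, 7 of 7 slow fiber genes were lower in Gas in each genotype, with a median log2 fold change of -4.23 in WT and -3.57 in LSD1-mKO. Of all genes, 8.75% were called lower and 8.25% higher in Gas in WT, and 12.9% and 11.6% in LSD1-mKO. Of the 10 fast fiber genes, 8 had positive log2 fold changes in each genotype, and 7 were called as higher in Gas in WT and 8 in LSD1-mKO. *Myh2*, the myosin of type IIA fibers, was lower in both (-2.75 and -2.29). Of the developmental list *Myh3* (-3.13 in WT, -4.15 in LSD1-mKO) and *Ncam1* were lower in Gas in both genotypes and *Chrng* in LSD1-mKO, and *Myh6* of the cardiac list was lower in both (-2.43 and -2.40). In LSD1-mKO *Pecam1* and *Col3a1* were lower in Gas and *S100a9* was higher. The adipocyte and tendon lists, of 3 genes each, had 0 genes called by edgeR in any comparison.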
